A study of Mus musculus with 31 samples.

Results

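The expression of 9 macrophage genes was followed in these arrays, namely Csf1r, Adgre1, Cd68, Aif1, Spi1, Apoe and the C1q chains C1qa, C1qb and C1qc. Members were taken as every probe whose gene symbol in the platform annotation is exactly 1 of these names. This gave 9 probes of 13872 on the array, 1 for each gene and 9 of the 10600 genes the annotation names, and 0 members had no probe. All 9 had a value in each of the 16 mouse-level ratios and were among the 7325 probes tested, so no member was lost to the filter on missing values. The position of each probe within its gene is not analysed here.

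Bone marrow was cultured for 8 days into macrophages. It came from mice aged 6 to 8 weeks, either C57BL/6J wild type or MyD88-deficient (MyD88-/-), and L929-conditioned medium supplied CSF-1. MyD88 is an adaptor protein that passes on the signal of most Toll-like receptors. Cells of each mouse were given LPS at 10 ng/mL, live E. coli at 1 bacterium per macrophage, or medium alone (mock) for 2 hours, and each array compared stimulated with mock RNA of 1 mouse. The 4 groups, wild type and MyD88-/- with LPS and wild type and MyD88-/- with E. coli, held 4 mice each, and all cells shared the CSF-1 culture. Where 4 group values follow each other below, they stand in that order. Each mouse and stimulus had an array in each dye orientation, except mouse 4 of MyD88-/- LPS, which had the unswapped array alone. A value is a log2 ratio of stimulated over mock, a direction that is likely from the titles and from the rise of textbook LPS genes. A ratio gives a change and not a level, so levels are not compared between genes.

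Csf1r is the receptor for CSF-1, the growth factor that keeps macrophages alive and differentiating. Spi1 encodes PU.1, the transcription factor of the ETS family that macrophages depend on and that binds purine-rich sites with the core GAGGAA. Adgre1 encodes the surface marker F4/80, Cd68 a glycoprotein of lysosomes and late endosomes, and Aif1 the calcium-binding, actin-bundling protein IBA1. Apoe encodes the lipoprotein component that carries cholesterol out of macrophages. The chains encoded by C1qa, C1qb and C1qc assemble into C1q, the recognition subunit that starts the classical complement pathway, and macrophages are a major source of it.

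The C1q genes lie side by side in GRCm38.p6 at chr4:136880126-136898844, a stretch of 18719 bases in which C1qb, C1qc and C1qa follow each other with no other annotated gene between them. The stretches before the starts of C1qb and C1qc are shown because these neighbours encode chains of the same protein, and that of Cd68 because Cd68 was called in a response. Each is the 250 bases before an annotated start, from RefSeq (GRCm38.p6), on the minus strand. They lie at chr4:136886201-136886450, chr4:136892915-136893164 and chr11:69666171-69666420 in turn, with GAGGAA or its reverse complement TTCCTC in capitals. The start used for C1qc lies inside the gene's span, which reaches 136892936, so that stretch overlaps the gene.
C1qb: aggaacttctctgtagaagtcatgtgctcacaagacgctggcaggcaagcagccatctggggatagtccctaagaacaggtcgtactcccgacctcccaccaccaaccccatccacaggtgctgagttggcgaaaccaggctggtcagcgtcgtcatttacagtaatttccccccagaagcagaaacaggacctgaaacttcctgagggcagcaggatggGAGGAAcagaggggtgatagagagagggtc
C1qc: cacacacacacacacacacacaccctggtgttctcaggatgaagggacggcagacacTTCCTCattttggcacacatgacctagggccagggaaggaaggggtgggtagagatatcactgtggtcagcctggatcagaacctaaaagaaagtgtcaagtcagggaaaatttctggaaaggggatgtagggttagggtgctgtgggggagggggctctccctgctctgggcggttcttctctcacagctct
Cd68: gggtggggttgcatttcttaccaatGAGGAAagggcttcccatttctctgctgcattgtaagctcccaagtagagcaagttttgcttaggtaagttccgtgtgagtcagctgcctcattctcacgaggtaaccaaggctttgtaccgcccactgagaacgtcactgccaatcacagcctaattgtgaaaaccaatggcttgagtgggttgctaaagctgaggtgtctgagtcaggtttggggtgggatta
Between the match and the start lay 24 bases in C1qb, 187 in C1qc and 219 in Cd68, and in C1qc the match was on the other strand. The promoter table held 5 of the 9 genes, C1qb, C1qc, Cd68, Aif1 and Apoe, with 7 promoters in all. Each of the 5 had a match in at least 1 promoter, while the Apoe promoter at chr7:19698622-19698871 had 0. Of all 32851 promoters in that table, 23.3% held GAGGAA on either strand in the same 250 bases. That share counts promoters and the 5 are genes, so they are not like figures. A match describes the letters and says nothing of binding.

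Across the series, arrays carried 5564 to 10497 values each, and the median absolute deviation of an array's log2 ratios ran from 0.514 to 1.0. A pair of arrays stood apart. The swapped array of mouse 1 in wild-type E. coli had the fewest values, 5564, the highest median, 0.123, and a spread of 0.906. Its count was close to that of the unswapped array of wild-type E. coli mouse 2, 5983. The swapped array of mouse 4 in MyD88-/- E. coli had the widest spread, 1.0. Across probes, the 15 pairs of arrays with opposite dyes correlated with r from 0.256 to 0.71. The highest r, 0.71, was that of wild-type E. coli mouse 1, and the pair of MyD88-/- E. coli mouse 4 had 0.325. None of the values of the 9 genes was at the deposited floor. Nothing in the labels says whether the LPS and E. coli arrays of a mouse used the same mock RNA.

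At 2 hours the 9 genes had moved little. Cd68 was lower in stimulated wild-type cells after LPS, C1qa was lower in wild-type cells after E. coli, and Spi1 was higher in MyD88-/- cells after E. coli. These were the calls among the 36 gene and group combinations, with limma and Benjamini-Hochberg adjusted p under 0.05 over all 7325 probes. Of the 36 fitted log2 ratios, 25 were below 0 and 11 above, and they ran from -0.54 to 0.65. For 35 of the 36 the 95% interval lay within a 2-fold change in either direction, the exception being Spi1 in MyD88-/- E. coli with an upper bound of 1.02. In bulk RNA, fewer cells of a type and less RNA per cell cannot be told apart.

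In the wild-type LPS response 1 of 9 members was called, and it was lower, where 17.0% of all probes were called and 9.04% were called lower. In wild-type E. coli 1 of 9 was called, again lower, beside 21.2% of all probes called and 11.8% called lower. For MyD88-/- E. coli the count was 1 of 9, higher, beside 10.8% called and 6.35% called higher. In MyD88-/- LPS limma called 0 of 9, beside 9.98% of all probes, and 2 of the 9 had an unadjusted p under 0.05, as had 21.9% of all probes. The member counts were thus near the share of all probes. The median log2 ratio of the 9 genes was -0.23, -0.22, -0.17 and -0.10 in the 4 groups, where the median of all probes was -0.05, -0.05, -0.06 and -0.05. Direction aside, the median absolute log2 ratio in wild-type LPS was 0.279 for the 9 genes and 0.279 for all probes.

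**Figure D1:**
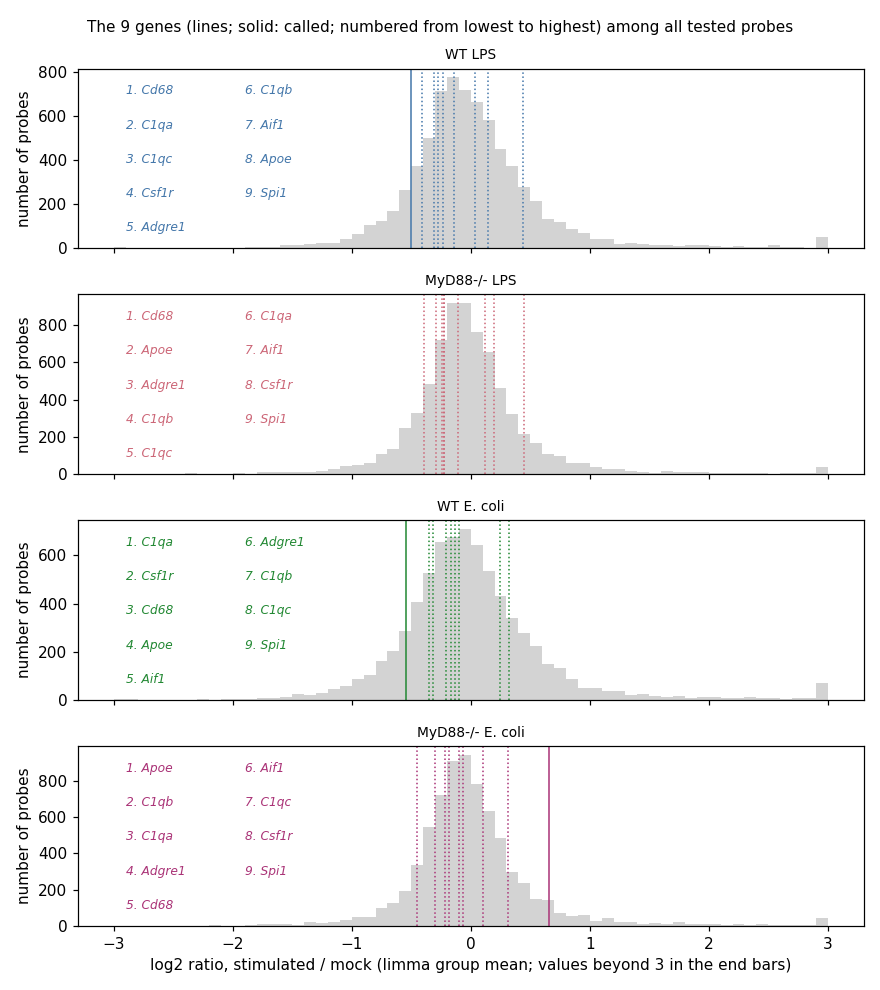
Histograms of the fitted log2 ratio (stimulated over mock, x axis) of all 7325 tested probes (y axis, number of probes) in the 4 groups, with values beyond 3 in the end bars. Vertical lines mark the 9 genes, numbered from lowest to highest, solid where called. All lines lie in the body of the distribution, between -0.54 and 0.65.

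**Figure D2:**
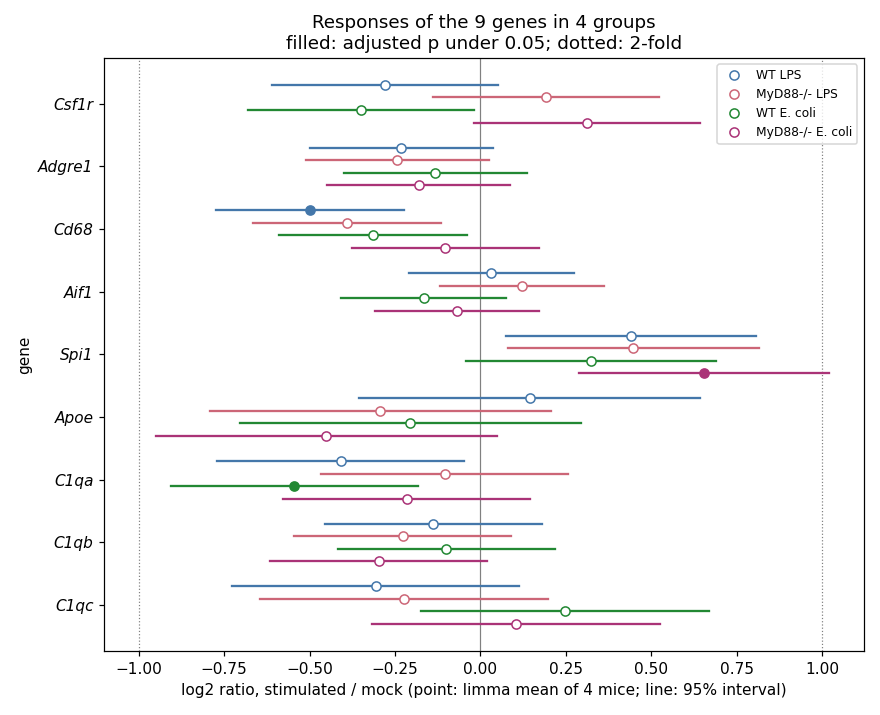
Fitted log2 ratio (stimulated over mock, x axis) of each of the 9 genes in the 4 groups, with its 95% interval from limma (4 mice per group). Filled points have an adjusted p under 0.05 and dotted lines mark a 2-fold change. The 3 filled points are Cd68 in wild-type LPS, Spi1 in MyD88-/- E. coli and C1qa in wild-type E. coli.

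Csf1r (chr18:61105572-61131139, GRCm38.p6) had opposite signs in the genotypes. The wild-type mice gave log2 ratios of -0.26, -0.46, 0.06 and -0.46 after LPS and -0.41, -0.07, -0.19 and -0.73 after E. coli. MyD88-/- mice gave 0.16, 0.57, -0.16 and 0.20 after LPS and 0.02, 0.49, 0.04 and 0.69 after E. coli. After E. coli all 4 wild-type mice were below 0 and all 4 MyD88-/- mice above 0, without overlap. This rests on 1 array, since MyD88-/- mouse 4 read 1.56 on the swapped array that stood apart and -0.17 on its unswapped partner, and without the former the genotypes overlapped. After LPS the groups overlapped, with 3 of 4 wild-type mice below 0 and 3 of 4 MyD88-/- mice above it.

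The fitted Csf1r response was -0.28 (SE 0.155, limma adjusted p = 0.253) in wild-type LPS and -0.35 (adjusted p = 0.128) in wild-type E. coli. In MyD88-/- cells it was 0.19 (adjusted p = 0.529) after LPS and 0.31 (adjusted p = 0.256) after E. coli. None of these passed the threshold, and without the swapped array of MyD88-/- E. coli mouse 4 the last was 0.0965 (adjusted p = 0.766). The MyD88-/- minus wild-type difference was 0.47 (95% interval 0.002 to 0.938) after LPS and 0.66 (0.195 to 1.131) after E. coli. Their limma adjusted p over all probes were 0.560 and 0.190, so neither was called. Without the swapped array of MyD88-/- mouse 4 the E. coli difference was 0.447 (adjusted p = 0.416).

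Adgre1 (chr17:57358581-57483529) was below 0 in 15 of the 16 mouse-level ratios, by small amounts. Its values were -0.05, -0.10, -0.42 and -0.36 in wild-type LPS and -0.25, -0.22, -0.10 and -0.40 in MyD88-/- LPS. They were -0.05, -0.11, -0.24 and -0.12 in wild-type E. coli and -0.42, 0.24, -0.02 and -0.52 in MyD88-/- E. coli. The groups overlapped throughout. The fitted responses, -0.23, -0.24, -0.13 and -0.18 in the same order, had limma adjusted p from 0.240 to 0.518, and none was called. The size of its ratio also went with the dye, as given further on.

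Cd68 (chr11:69664213-69666170) was below 0 after LPS in all 8 mice. The wild-type LPS mice gave -0.37, -0.43, -0.65 and -0.55, a mean of -0.50 ± 0.124 (SD, n = 4). MyD88-/- LPS mice gave -0.45, -0.29, -0.23 and -0.59, a mean of -0.39 ± 0.163 (SD, n = 4). The ranges overlapped. The fitted wild-type LPS value is a level 0.707 times that of mock and was called (SE 0.129, limma adjusted p = 0.0137). In MyD88-/- LPS the gene did not pass (limma adjusted p = 0.0729). Cd68 passed there in 4 of 28 alternatives. These were without MyD88-/- E. coli mouse 4 (limma adjusted p = 0.0356) or its swapped array (0.0308), with arrays scaled to 1 spread (0.0401) and on unswapped arrays alone (0.00668). On swapped arrays alone the MyD88-/- LPS value was -0.0957 (limma adjusted p = 0.927). The difference between genotypes after LPS was 0.11 (95% interval -0.280 to 0.497).

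After E. coli the spread of Cd68 was wider. Wild-type mice gave -0.57, -0.34, -0.10 and -0.25, and MyD88-/- mice gave -0.33, -0.40, -0.03 and 0.35. The single value above 0 came from MyD88-/- mouse 4, whose swapped array read 1.07 and unswapped array -0.38. The fitted responses were -0.31 (limma adjusted p = 0.100) and -0.10 (adjusted p = 0.719), and the latter was -0.284 (adjusted p = 0.124) without that swapped array. For Cd68 the wild-type LPS call was lost without wild-type LPS mouse 3 (-0.449, limma adjusted p = 0.0666) or its mouse 4 (-0.484, adjusted p = 0.0519). On swapped arrays alone the value was -0.401 (adjusted p = 0.236) and on unswapped arrays alone -0.598 (adjusted p = 0.00312).

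Aif1 (chr17:35170986-35176083) stayed near 0. Its values were -0.02, 0.13, 0.06 and -0.04 in wild-type LPS and 0.03, 0.12, 0.45 and -0.11 in MyD88-/- LPS. In wild-type E. coli they were 0.07, -0.46, -0.22 and -0.06 and in MyD88-/- E. coli -0.13, -0.11, -0.08 and 0.05. Each group had mice on both sides of 0. The fitted responses lay between -0.17 and 0.12, with limma adjusted p from 0.334 to 0.888. The SD between mice of a group was 0.173, and only 3.41% of tested probes had a smaller one.

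Spi1 (chr2:91082374-91115759) lay above 0 in 15 of 16 mouse-level ratios. After LPS the mice were close together, with 0.55, 0.44, 0.47 and 0.31 in wild type and 0.43, 0.59, 0.28 and 0.49 in MyD88-/-. After E. coli wild-type mice gave -0.30, 0.63, 0.66 and 0.31 and MyD88-/- mice gave 0.28, 0.63, 0.37 and 1.34. The groups overlapped. The extremes, -0.30 and 1.34, came from the mice whose swapped arrays stood apart, and those arrays read -0.83 and 2.03 where the unswapped partners read 0.23 and 0.64.

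The Spi1 response in MyD88-/- E. coli was 0.65 (SE 0.172), a level 1.57 times that of mock, and was called with a limma adjusted p of 0.0211. After LPS the value was 0.44 in wild type (adjusted p = 0.097) and in MyD88-/- 0.45 (adjusted p = 0.128). With E. coli, wild-type cells gave 0.32 (adjusted p = 0.208). The difference between genotypes after E. coli was 0.33 (95% interval -0.187 to 0.847) and was not called, so the groups are not shown to differ. Without the swapped array of MyD88-/- E. coli mouse 4 the called value was 0.481 (limma adjusted p = 0.0364). Leaving out that mouse altogether gave 0.427 (adjusted p = 0.148), and leaving out MyD88-/- E. coli mouse 2 gave 0.662 (adjusted p = 0.0735). Without the swapped array of wild-type E. coli mouse 1 the wild-type E. coli response of Spi1 was 0.457 and passed (limma adjusted p = 0.0348).

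Apoe (chr7:19696244-19701310) varied most between mice, with an SD within groups of 0.49, larger than in 60.6% of tested probes. Its values were 0.23, 0.06, 0.37 and -0.08 in wild-type LPS and -0.71, 0.06, -0.15 and -0.37 in MyD88-/- LPS. In wild-type E. coli they were -0.04, -0.61, -0.14 and -0.03. MyD88-/- E. coli gave -1.70, -0.16, -0.22 and 0.28, where the low mouse had a low value on each of its arrays. None of the fitted responses, 0.14, -0.29, -0.21 and -0.45 in the same order, was called (limma adjusted p from 0.281 to 0.733). Without its low mouse, mouse 1, the MyD88-/- E. coli value was -0.0351, and the difference between genotypes after E. coli went from -0.25 to 0.17, neither of them called.

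The C1q genes lay mostly below 0, with C1qa below 0 in 14, C1qb in 11 and C1qc in 12 of 16 mouse-level ratios. C1qa (chr4:136895916-136898844) gave -0.31, -0.23, -0.57 and -0.52 in wild-type LPS and -0.13, 0.12, 0.08 and -0.49 in MyD88-/- LPS. In wild-type E. coli it gave -1.40, -0.30, -0.19 and -0.29, and in MyD88-/- E. coli -0.33, -0.10, -0.24 and -0.20. All 4 mice were below 0 in 3 of the groups, and the value of mouse 1 in wild-type E. coli lay far below those of the other mice. Its arrays read -0.76 unswapped and -2.03 swapped.

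The C1qa response in wild-type E. coli was -0.54 (SE 0.169) and was called with a limma adjusted p of 0.0320. Without mouse 1 of that group it was -0.259 (adjusted p = 0.213), so the call rests on that mouse. Leaving out its swapped array alone gave -0.385 (limma adjusted p = 0.0344). In wild-type LPS, where the mice were closer together, the value was -0.41 (adjusted p = 0.120). It passed without the wild-type E. coli mouse 1 swapped array (adjusted p = 0.03), which is not in that group but enters the shared estimate of spread. The MyD88-/- responses were -0.10 (adjusted p = 0.789) and -0.22 (adjusted p = 0.514) after LPS and E. coli.

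C1qb (chr4:136880126-136886200) gave 0.06, 0.03, -0.48 and -0.17 in wild-type LPS and -0.51, 0.02, 0.03 and -0.46 in MyD88-/- LPS. In wild-type E. coli it gave -0.42, -0.02, -0.20 and 0.24, and in MyD88-/- E. coli -0.54, -0.07, -0.04 and -0.55. The groups overlapped. Fitted responses ran from -0.30 to -0.10, with limma adjusted p from 0.260 to 0.699. C1qc (chr4:136889801-136892936) was below 0 in all 8 mice given LPS, with -0.08, -0.14, -0.57 and -0.45 in wild type and -0.05, -0.32, -0.20 and -0.32 in MyD88-/-. After E. coli it was scattered, with 0.77, -0.22, -0.22 and 0.66 in wild type and -0.37, -0.10, 0.03 and 0.85 in MyD88-/-. No C1qc response was called (limma adjusted p from 0.330 to 0.825).

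**Figure D3:**
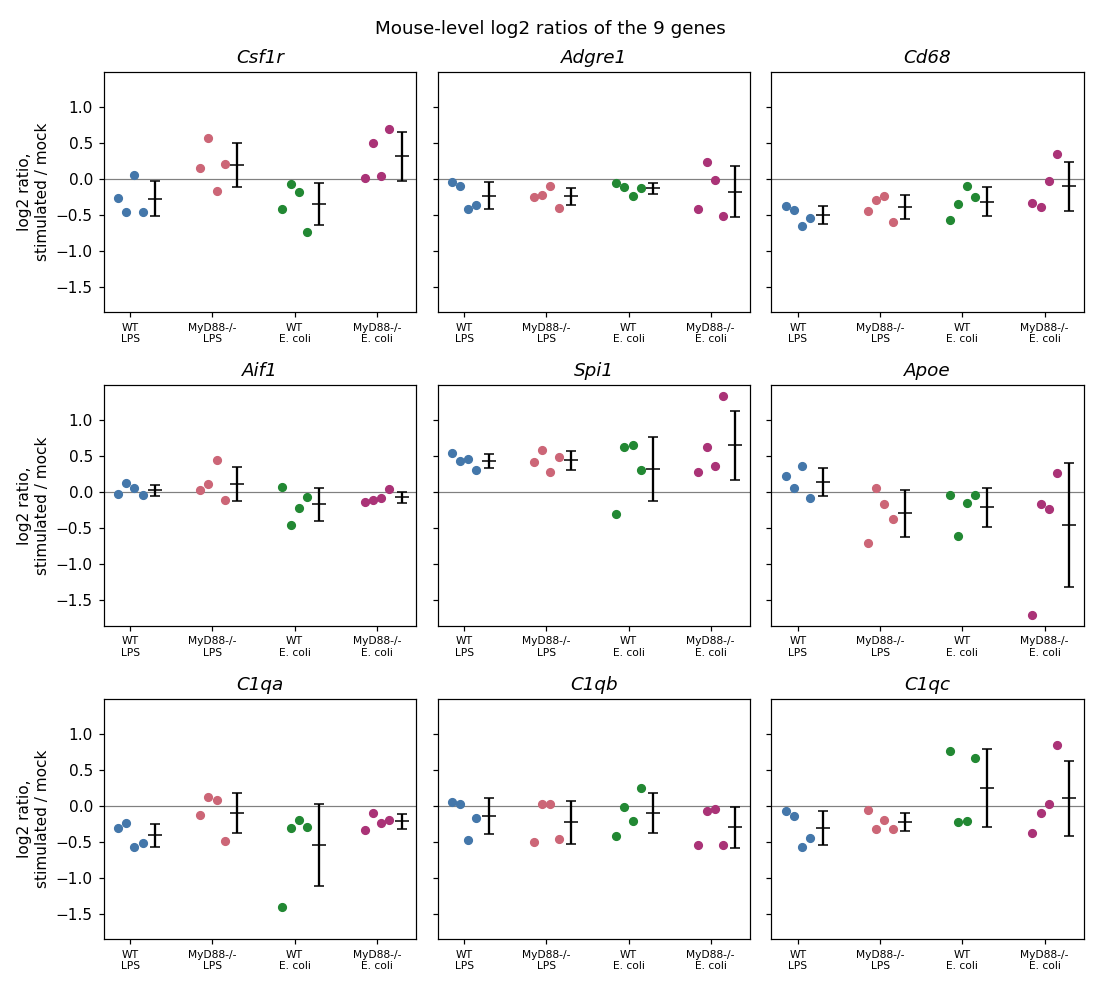
Log2 ratio of stimulated over mock (y axis) of each of the 9 genes in each mouse (points, 4 per group, each the mean of the dye pair or the single array where 1 had a value), with the group mean and SD beside them. Csf1r after E. coli separates the genotypes, a separation lost without the swapped array of MyD88-/- mouse 4, Spi1 is above 0 in 15 of 16 mice and stimuli, and the low C1qa point at -1.40 is mouse 1 of wild-type E. coli.

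Differences between genotypes were asked next, since MyD88 carries the signal of most Toll-like receptors. Limma called 0 of 9 members after LPS, beside 0.287% of all probes, and 0 of 9 after E. coli, beside 0.751%. Unadjusted, 1 of 9 was under 0.05 in each, and it was Csf1r both times, beside 8.92% of all probes after LPS and 13.3% after E. coli. For 16 of the 18 differences the 95% interval lay within a 2-fold change, the exceptions being Apoe after LPS (-1.142 to 0.270) and Csf1r after E. coli. Wild-type and MyD88-/- mice did not overlap in 0 of 9 genes after LPS, beside 6.68% of all probes, and in 1 of 9, Csf1r, after E. coli, beside 9.08%. Without the swapped array of MyD88-/- E. coli mouse 4 that count was 0 of 9.

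Between LPS and E. coli, limma called 0 of 9 members in wild type, beside 0.0% of all probes, and 0 of 9 in MyD88-/-, beside 0.0%. The interaction of genotype and stimulus likewise gave 0 of 9, beside 0.0%. No member reached an unadjusted p under 0.05 in these 3 comparisons. The E. coli minus LPS difference farthest from 0 was that of C1qc in wild type, 0.55 (95% interval -0.040 to 1.149). It was 0.37 (-0.172 to 0.915) without the swapped array of wild-type E. coli mouse 1. With the mouse number as a replicate block the counts were 0 as well. A shared mock sample may link the stimuli of a mouse.

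The array orientation moved with some of these values. Adgre1 was lower on the unswapped array in 14 of 15 pairs, with means of -0.358 unswapped and -0.009 swapped. Its dye term, from a fit of single arrays with the pair as a random block, was -0.35 (SE 0.089, limma adjusted p = 0.00967). It was the 1 member of 9 with a called dye term, where 10.3% of all probes had one. Cd68 was lower unswapped in 13 of 15 pairs (dye term -0.31, adjusted p = 0.0749) and Apoe in 14 of 15 (adjusted p = 0.225). Over all members the arrays of a pair had opposite signs in 59 of 132 pairs. The mouse-level value came from 1 array for every gene in mouse 4 of MyD88-/- LPS, and in 3 further cases, Csf1r in MyD88-/- LPS mouse 2, C1qb in wild-type LPS mouse 2 and C1qc in wild-type E. coli mouse 4.

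**Figure D4:**
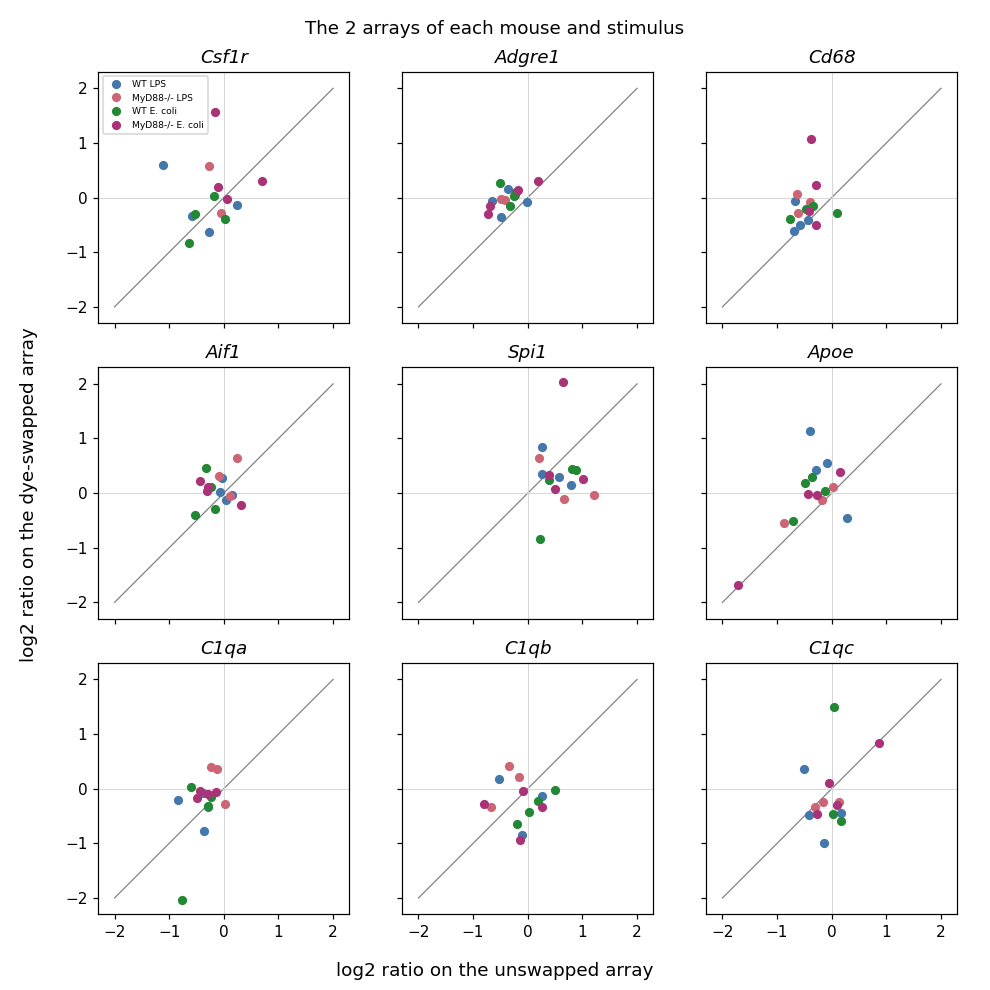
Log2 ratio on the unswapped array (x axis) against the dye-swapped array (y axis) of the same mouse and stimulus for each of the 9 genes, with the line of equality. Adgre1 points lie above the line in 14 of 15 pairs, and single points far from it include Csf1r, Cd68 and Spi1 in MyD88-/- E. coli mouse 4 and C1qa and C1qc in wild-type E. coli mouse 1.

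Likeness between probes was measured as the root-mean-square difference of log2 ratios over the shared mouse-level ratios, among 6091 probes of 1 symbol with at least 14 of the 16. These values are descriptions. C1qb and Adgre1 were close, at 0.194, which ranked C1qb 18th among the probes nearest to Adgre1 and Adgre1 4th among those nearest to C1qb. No C1q gene was among the 3 probes nearest to another C1q gene. C1qa and C1qb differed by 0.355 (rank 241 of 6091 from C1qa), and C1qa and C1qc by 0.668 (rank 3128). The widest gap between C1qa and C1qc was in wild-type E. coli mouse 1, at -1.40 and 0.77. The swapped array of that mouse stood apart, and the distance without it was not computed. Spi1 had its nearest member, Csf1r, at 0.585 (rank 847). For Aif1 the nearest member was Adgre1, at 0.320 (rank 746), and for Csf1r it was Aif1, at 0.427 (rank 673). By rank Spi1 was thus not set apart.

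The 3 nearest probes of each gene were as follows. For Csf1r they were Nono, Tuba1a and Tgfbi, at 0.221 to 0.228, and for Adgre1 they were Tmco4, Litaf and Lonp2, at 0.136 to 0.153. Cd68 had Slc43a1, Pcsk1n and Atg7 at 0.174 to 0.185, and Aif1 had Vps4b, Ap4b1 and Snrpf at 0.134 to 0.154. Nearest to Spi1 were Ifna6, Ighm and Cts6, at 0.180 to 0.207. Apoe had 1500009C09Rik, Rtn3 and Mmadhc at 0.349 to 0.356. C1qa had Vti1a, Sumf2 and Csrp1 at 0.172 to 0.202, C1qb had Phf14, Cd70 and Ddost at 0.161 to 0.188, and C1qc had Tbcb, Pts and Fam32a at 0.289 to 0.300.

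Genes of the members' own pathways were read from lists. For comparison with each list below, limma called 17.0%, 9.98%, 21.2% and 10.8% of all probes in the 4 groups. The median log2 ratio of all probes was -0.05, -0.05, -0.06 and -0.05. Of the CSF-1 pathway list, 14 of 18 genes on the array were tested. In wild type 4 rose and 2 fell after LPS and 4 rose and 2 fell after E. coli, and in MyD88-/- 2 rose and 1 fell after LPS and 3 rose and 1 fell after E. coli. The list's median in wild-type LPS was -0.08, beside -0.05 for all probes. Csf1, the ligand of Csf1r, rose in all 4 groups, by log2 ratios of 3.50, 3.84, 4.30 and 3.38 (limma adjusted p from 4.61e-07 to 1.02e-05). Inpp5d, the SHIP1 phosphatase that limits PI3-kinase signals, fell in all 4, with -1.01, -0.71, -0.99 and -0.88. Stat5a, a transcription factor activated below cytokine receptors, rose in wild type (1.88 and 2.31) and did not pass in MyD88-/- (0.80 and 1.03). Its genotype differences were not called (limma adjusted p = 0.505 after LPS and 0.226 after E. coli), and the MyD88-/- E. coli value passed in 9 of 28 alternatives.

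Of other macrophage genes, 23 of 30 on the array were tested. After LPS 2 rose and 4 fell in wild type and 2 rose and 4 fell in MyD88-/-, and after E. coli 1 rose and 5 fell in wild type and 2 rose and 3 fell in MyD88-/-. Medians were -0.23, -0.08, -0.26 and -0.10 in the 4 groups. Fcgr3, a receptor for antibody Fc parts, fell in all 4 groups, with -0.70, -0.60, -0.63 and -0.72. All 4 calls of Fcgr3 were lost on swapped arrays alone and with only the groups of the comparison fitted. Irf8, a transcription factor that pairs with PU.1, fell as well, with -1.33, -1.51, -0.75 and -1.40, but in wild type given E. coli its call was lost without mouse 2, 3 or 4 of that group. Msr1, a scavenger receptor, rose by 0.52, 0.79, 0.48 and 0.91. Its wild-type LPS call was lost without mouse 2 of that group, and its wild-type E. coli call without mouse 2 or 3. Both wild-type calls were also lost on unswapped arrays alone. All 4 calls of Msr1 were lost with only the groups of the comparison fitted.

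PU.1 partners and other ETS factors had 18 of 23 genes tested. Of these 3 rose and 5 fell in wild-type LPS, 2 and 4 in MyD88-/- LPS, 4 and 6 in wild type given E. coli, and 2 and 5 in MyD88-/- given E. coli. The median log2 ratio lay between -0.32 and -0.19 in the 4 groups. Jun, a partner of PU.1 at promoters, fell in all 4 groups, with -2.57, -1.72, -2.11 and -1.99 (limma adjusted p from 9e-05 to 0.00414). Elf2, another ETS factor, fell in wild type, with -1.03 after LPS and -1.50 after E. coli. It was -0.51 in each MyD88-/- group without a call. The genotype differences of Elf2 were not called (limma adjusted p = 0.681 after LPS and 0.187 after E. coli), so a difference between genotypes is not shown.

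In the lysosome list around Cd68, 6 of 9 genes on the array were tested. In wild type 2 fell after LPS and 4 after E. coli, and in MyD88-/- limma called 0 after either stimulus. Ctsl, a lysosomal protease, was -0.99 and -0.80 in wild type and -0.14 and -0.04 in MyD88-/-. Lamp1, the lysosomal membrane glycoprotein of the same family as Cd68, was -0.38 and -0.49 in wild type and -0.17 and 0.04 in MyD88-/-. The wild-type LPS call of Lamp1 was lost without mouse 2 and with arrays scaled to 1 spread, and that of Ctsd after E. coli (-0.94) without mouse 1. No genotype difference of this list was called, so a difference between genotypes is not shown.

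Other complement genes had 19 of 32 tested, and 2 rose and 1 fell in wild-type LPS, 1 rose in MyD88-/- LPS, 1 rose in wild type given E. coli, and 0 were called by limma in MyD88-/- cells given E. coli. Cfb, factor B of the alternative pathway, was 1.39, 1.29 and 2.61 in the first 3 of these groups and 0.44 (limma adjusted p = 0.408) in MyD88-/- E. coli. The MyD88-/- LPS call was lost without mouse 1 or 2 of that group. Its difference between genotypes after E. coli was -2.17 (limma adjusted p = 0.0202), lower in MyD88-/-. That call was lost without wild-type mouse 1 or MyD88-/- mouse 1 or 4. It was also lost on swapped arrays alone and with only the groups of the comparison fitted. Over its alternatives the value lay between -2.39 and -1.88. Cfp, properdin, fell in wild-type LPS (-0.62), a call lost without mouse 3. Cr1l, which encodes the complement regulator Crry, rose there by 0.98, a call lost without mouse 2.

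From the list of Apoe partners 11 of 16 genes were tested, and 1 fell in each group. It was Apobec1, the cytidine deaminase that edits Apob mRNA, at -2.22 and -2.20 in wild type and -1.13 and -1.05 in MyD88-/- after LPS and E. coli. Its genotype differences were 1.08 after LPS (limma adjusted p = 0.0113) and 1.15 after E. coli (adjusted p = 0.00451). The LPS difference was not called without MyD88-/- LPS mouse 2 or with arrays scaled to 1 spread. Neither difference was called on swapped arrays alone or with only the groups of the comparison fitted. Apoc2 and Lrp1 were not called in any group.

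Markers of other cells that bone marrow could hold were mostly unmeasured. Of T-cell markers 0 of 10 on the array were tested, of neutrophil markers 4 of 13, of stromal markers 1 of 8, of B-cell markers 5 of 8, of dendritic markers 2 of 5 and of erythroid markers 2 of 5. No neutrophil or erythroid marker was called in any response. Among B-cell markers Blnk, an adaptor that macrophages express too, fell in all 4 groups, with -0.69, -0.85, -0.69 and -0.84, Cd79a fell in MyD88-/- LPS (-1.05) and Ighm rose in MyD88-/- E. coli (0.75), the last 2 calls being lost without mouse 4 of their groups. Zbtb46, a dendritic marker, rose in wild-type LPS (0.70), a call lost without mouse 1, 3 or 4. Sparc, a stromal marker, rose in wild-type E. coli (0.66, limma adjusted p = 0.00436). The part of such cells in the values of the 9 genes was not tested.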

How the data were processed

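RNA was measured on 31 spotted 2-colour arrays. Per the labels, GenePix served for scanning and quantification, and BASE and GeneSpring for the analysis. What the authors deposited is a log2 ratio per probe and array, already normalized, and background correction and normalization are not given in the sources used here. Of 265421 values, 4333 at the floor of log2(0.01) were treated as missing. Dye pairs were averaged to 16 mouse-level ratios, in which 4 mice per group set the precision. The 7325 probes measured in at least 3 mice of each group were fitted with limma 3.58.1 in R 4.3.3, with 1 coefficient per group and Benjamini-Hochberg adjustment over all of them. The self-test used simulated ratios. Figures were drawn with matplotlib 3.10.9. Mice within a group are separate animals per the labels.

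The 9 genes and the related lists were chosen with earlier results of these data known. Besides the members, the text names the 3 nearest probes of each and, from each related list, the 3 genes of smallest unadjusted p over the responses. The markers of other cells that are named are those called, chosen after their values were seen. Same-numbered mice of a genotype deviated together little (r from -0.0568 to 0.142, with 2 of 8 matching their own number best). Mouse numbers were therefore not taken as pairs in the main fit. A weak correlation cannot show that the same number stands for different animals. Alternatives covered the floor, centring, scaling, dye orientation, a dye term, the filter, the prior, the groups fitted, the replicate block and each mouse left out. A pair of further alternatives, each without 1 swapped array that stood apart, was chosen after seeing the data. Gene positions and promoters are from RefSeq.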

Additional observations from a re-analysis of the deposited data

Results flagged for a closer look

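C1qa in mouse 1 of wild-type E. coli had a log2 ratio of -1.4, with the other 3 mice between -0.3 and -0.191. The gap took up 0.909 of the group's range. Of 36 groups of 4 mice examined, 1 stood out in this way, where chance gives about 1 in 20.

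The Csf1r difference between genotypes after E. coli was 0.663, with all wild-type mice below 0 and all MyD88-/- mice above 0. Without the swapped array of MyD88-/- mouse 4 it was 0.447, and the genotypes overlapped. The difference itself was tested with limma over all probes, and its adjusted p was 0.190.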

How the results depend on the processing

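Across 54 fitted values of the 9 genes and their alternatives, 17 gained a call, 11 lost one and 0 called values reversed. A further 8 stayed uncalled but moved by more than the SD between mice, and the other 1470 kept their side of the threshold. Only 3 fitted values were called, so most of the 1470 were uncalled values that stayed uncalled. Several uncalled values changed sign in some alternatives, such as the LPS genotype differences of Adgre1 and Spi1 in 5 settings each. The counts called, 1 in wild-type LPS, 0 in MyD88-/- LPS and 1 in each E. coli response, changed as follows. Scaling each array to 1 spread gave 2 in wild-type LPS and 2 in MyD88-/- LPS. Unswapped arrays alone gave 2 in wild-type LPS, 2 in MyD88-/- LPS and 3 in wild-type E. coli. Swapped arrays alone, with 8 members tested since Csf1r had too few values, gave 0 in all 3 responses that held a call, as did fitting the groups of the comparison alone, which leaves fewer mice for the spread. Leaving out each mouse gave 0 to 2 in wild-type LPS, 0 to 1 in MyD88-/- LPS, 1 to 1 in wild-type E. coli (Spi1 in place of C1qa without mouse 1 of that group) and 0 to 1 in MyD88-/- E. coli. Without the swapped array of wild-type E. coli mouse 1 the counts were 3 in wild-type LPS and 2 in wild-type E. coli, and without that of MyD88-/- E. coli mouse 4 they were 2 in wild-type LPS and 1 in MyD88-/- LPS. The cause of these changes was not tested beyond what the alternatives remove. Genotype differences stayed at 0, from 0 to 0 with each mouse left out, and the fit with the replicate block gave 0 for the stimulus differences and the interaction. With 4 mice per group, standard errors of 0.113 to 0.234 limit what can be called among the small ratios of these genes.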
